A study of Mus musculus with 24 samples.

Results

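The 37 genes of the mouse mitochondrial genome were described across 12 total RNA-seq libraries of preimplantation embryos. The members were the gene rows whose symbol starts with mt-, which were 37 of the 55291 gene rows: 13 mRNAs, 2 ribosomal RNAs (rRNAs) and 22 transfer RNAs (tRNAs). All 37 were listed at 0 counts in all 12 libraries. In contrast, 11 rows over nuclear copies of the same sequences, at 95% identity or more, held from 2.09% to 3.19% of a library's counts. With 4 rows added later the range was 2.82% to 4.12%. The account below therefore follows each mitochondrial gene to its copies.

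Zygotes of B6D2F1 parents (a cross of C57BL/6 and DBA/2 mice) had been injected in the male pronucleus with ASOs (antisense oligonucleotides, synthetic strands used to have a chosen RNA degraded) at 20 µM. MERVL-KD embryos received ASOs against MERVL, an endogenous retrovirus expressed in 2-cell embryos, and control embryos received a scrambled ASO. Libraries of 30 zona-free embryos each were labelled 2-cell (1.5 dpc, days post coitum), 4-cell (2.5 dpc) and 8-cell (2.5 dpc), with 2 replicates of control and 2 of MERVL-KD at each stage. Each library thus pooled embryos, and the 4-cell and 8-cell libraries carry the same day. The paper states that stages were judged by eye. It reports that more MERVL-KD than control embryos were still at the 2-cell to 4-cell stage at 2.5 dpc. Embryos of 1 label may thus differ in pace of development between conditions, and this was not tested. Library totals ranged from 28167085 to 41482526 counts. The share of MERVL-int at the 2-cell stage was 6.33% and 6.57% under the scrambled ASO, compared with 0.157% and 0.143% under the MERVL ASOs. The 2-cell markers Zscan4c, Zscan4d, Zfp352, Tdpoz4 and Usp17lc were detected in every group, with summed levels from 592 to 649 CPM (normalized counts, scaled to a common library total) in control and from 338 to 410 CPM in MERVL-KD 2-cell embryos, and from 82.5 to 84.9 CPM and from 55.7 to 80.6 CPM in 8-cell embryos, where most of the sum was Tdpoz4. The 8-cell markers (Cdx2, Pou5f1, Krt8, Krt18, Cldn4 and Tfap2c) summed to between 144 and 156 CPM in control 2-cell embryos, between 498 and 510 in control 8-cell embryos and between 367 and 386 in MERVL-KD 8-cell embryos. Without Pou5f1 (240 and 225 CPM against 137 and 151 CPM) the 8-cell sums were 271 to 273 CPM in control and 230 to 235 CPM in MERVL-KD. Krt8 in contrast had 24.6 and 28.1 CPM in MERVL-KD and 4.20 and 5.52 CPM in control 4-cell embryos. Summed markers of granulosa and cumulus cells did not exceed 2.94 CPM, those of blood 8.14 CPM and those of sperm 1.40 CPM in any library, and Ptx3 and Hbb-bs were at 0 in 5 and 5 of the 6 groups. Other markers of these cells were detected: Hba-a1 had 116 and 98 counts in MERVL-KD against 52 and 41 in control 2-cell embryos, and 131 and 255 against 11 and 41 in 4-cell embryos, and each 2-cell library held 38 to 81 counts of Cyp19a1 and 15 to 32 of Has2. Their part in the results was not tested.

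Mitochondria carry a small circular genome that is inherited through the oocyte. It encodes core subunits of the respiratory chain and the RNAs of the mitochondrial ribosome and its tRNAs, and all proteins needed to copy, transcribe and translate it come from nuclear genes. POLRMT, a single-subunit RNA polymerase, transcribes long precursors from both strands, and the tRNAs are cut out of these so that mRNAs and rRNAs are released. Fragments of mitochondrial DNA have also been inserted into nuclear chromosomes during evolution, where most are annotated as pseudogenes.

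The 13 mRNAs at 0 were the complex I (NADH dehydrogenase) subunits mt-Nd1, mt-Nd2, mt-Nd3, mt-Nd4, mt-Nd4l, mt-Nd5 and mt-Nd6, the complex III subunit mt-Cytb, the complex IV (cytochrome c oxidase) subunits mt-Co1, mt-Co2 and mt-Co3, and the ATP synthase subunits mt-Atp6 and mt-Atp8. The rRNAs mt-Rnr1 and mt-Rnr2, of the small and the large mitochondrial ribosomal subunit, were at 0 as well, and so were the tRNA genes mt-Tf, mt-Tv, mt-Tl1, mt-Ti, mt-Tq, mt-Tm, mt-Tw, mt-Ta, mt-Tn, mt-Tc, mt-Ty, mt-Ts1, mt-Td, mt-Tk, mt-Tg, mt-Tr, mt-Th, mt-Ts2, mt-Tl2, mt-Te, mt-Tt and mt-Tp. A count of 0 allows up to 3 counts, which is 0.0723 CPM in the deepest library and 0.107 CPM in the shallowest. Chromosome M was the only chromosome with 100% of its gene rows at 0 in every library. On chromosome Y 96.4% of the rows were at 0, and on the other 20 chromosomes between 9.83% and 24.9%. No mitochondrial row entered any test, none has a fold change, and shares of the members among mitochondrial counts could not be formed. Whether the genome index used for the alignment held the mitochondrial genome is not given in the sources used here. Gm10925, a nuclear row identical to mt-Atp6 over its 678 bases, held 150506 to 236171 counts in a library. Only reads with a single best place in the genome had been counted. How the zeros arose was not tested, and they are not read here as levels of RNA.

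The authors counted only reads with a single best place in the genome and with mismatches over at most 0.04 of the bases of a read pair, which is 12 in 300 bases. The measure used below is a window of 150 bases, the length of 1 read, with at most 6 mismatches, which is the same share but not the authors' limit, since 1 read of a pair may carry more. The mitochondrial genome of the reference build GRCm38 (16299 bases, from C57BL/6J) was therefore searched against the nuclear chromosomes of the same build. BLAST gave 135 matches. The longest lay on chromosome 1 (24611535 to 24616188), held mitochondrial bases 6390 to 11042 from mt-Co1 to mt-Nd4, and differed at 3 of 4654 aligned positions. These were A6393T in mt-Co1, T9461C in mt-Nd3 and an added base in the mt-Tr gene, with positions counted along the mitochondrial genome and its base given first. A copy on chromosome 2 (22587288 to 22590534) held bases 4441 to 7699 at 97.4% identity, one on chromosome 13 (85126562 to 85127515) bases 12446 to 13400 at 95.2%, and one on chromosome 4 (80002330 to 80005200) bases 12488 to 15356 at 93.0%. Of all mitochondrial bases, 55.1% lay in a 150-base window with at most 6 mismatches to a nuclear stretch, and 31.1% in a window with none. With 12 mismatches in a window, the whole allowance of a pair in 1 read and a setting chosen after seeing the data, it was 66.5%.

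Stretches of 4 mitochondrial genes and of their copies are shown for the bases that separate a mitochondrial gene from a nuclear row that carried counts. All are from GRCm38 in the direction of the mitochondrial gene, and capitals mark bases of the copy that differ from the mitochondrial genome. The start of mt-Nd3 differed from the copy under the row Gm28438 at a single base.
mt-Nd3, chrM:9459-9518: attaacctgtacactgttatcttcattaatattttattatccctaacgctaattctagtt
Gm28438, chr1:24613060-24613119, minus strand: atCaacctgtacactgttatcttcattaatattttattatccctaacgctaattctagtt
The start of mt-Co2 was identical on chromosome 1, under Gm28661, and differed at 2 of 90 bases on chromosome 2, under Gm13341.
mt-Co2 and Gm28661, chrM:7013-7102 and chr1:24615476-24615565, minus strand: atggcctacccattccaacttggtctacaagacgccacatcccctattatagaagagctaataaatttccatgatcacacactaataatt
Gm13341, chr2:22587873-22587962, minus strand: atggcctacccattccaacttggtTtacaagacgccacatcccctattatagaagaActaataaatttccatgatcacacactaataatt
The start of mt-Cytb differed from its copy on chromosome 4, under Gm11410, at 6 of 90 bases. This is more than the share of 0.04 used here, and 1.14% of the windows over Gm11410 were within 6 mismatches.
mt-Cytb, chrM:14145-14234: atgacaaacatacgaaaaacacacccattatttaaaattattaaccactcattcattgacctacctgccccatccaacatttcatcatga
Gm11410, chr4:80003989-80004078, plus strand: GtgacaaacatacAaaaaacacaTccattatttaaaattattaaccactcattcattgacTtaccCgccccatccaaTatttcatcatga
In mt-Rnr2 the 90 bases closest to the copy on chromosome 6, under Gm20594, differed at 3 bases, whereas the whole copied part of that row was 89.1% identical.
mt-Rnr2, chrM:2072-2161: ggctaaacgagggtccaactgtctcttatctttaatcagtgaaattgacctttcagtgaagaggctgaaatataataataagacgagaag
Gm20594, chr6:79818253-79818342, plus strand: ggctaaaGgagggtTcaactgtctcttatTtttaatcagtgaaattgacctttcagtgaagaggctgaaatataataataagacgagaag

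**Figure D1:**
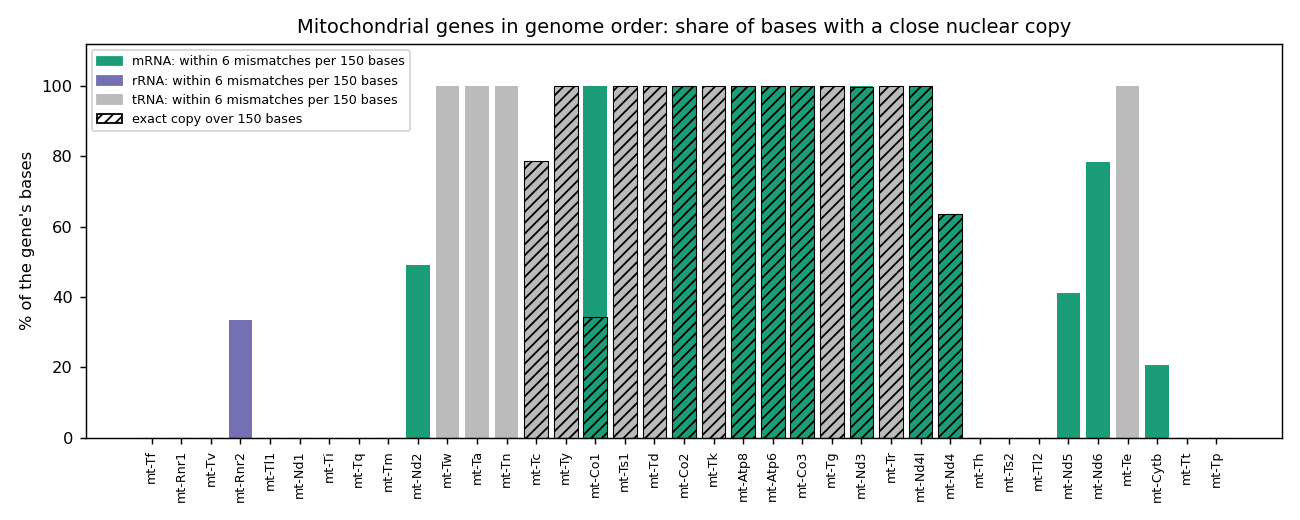
Share of each mitochondrial gene's bases (vertical axis, %) that lie in a 150-base window with at most 6 mismatches to a nuclear stretch (filled bars: green mRNAs, purple rRNAs, grey tRNAs) or with none (hatched), for the 37 genes in genome order. The genes from mt-Tw to mt-Nd4 stand at 63.6% to 100%, and 13 genes, mt-Rnr1 and mt-Nd1 among them, stand at 0%.

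Of the 37 genes, 17 lay wholly within such windows, 7 in part and 13 not at all, and 11 lay wholly within exact ones. Among the mRNAs, mt-Co1, mt-Co2, mt-Co3, mt-Atp6, mt-Atp8, mt-Nd3 and mt-Nd4l were covered over 100% of their length, mt-Nd6 over 78.4%, mt-Nd4 over 63.6%, mt-Nd2 over 49.2%, mt-Nd5 over 41.1%, mt-Cytb over 20.6% and mt-Nd1 over 0%. Of the rRNAs, mt-Rnr2 was covered over 33.4% and mt-Rnr1 over 0%. The genes without a close nuclear copy were thus at 0 counts just as those with one. With 12 mismatches allowed, 20 genes lay wholly within windows, 6 in part and 11 not at all, mt-Rnr1 and mt-Nd1 still among the last.

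Gene rows outside chromosome M that overlap a copy by at least 100 bases numbered 69. Of these, 11 lay on a match with at least 95% identity, and 4 further rows (Gm11407, Gm11408, Gm11410 and Gm20594) that hold at least 1 window within 6 mismatches were added after their values had been seen. By the identity rule alone, the 58 other rows include medians of 198974 counts (Gm20594), 44117 (Gm11410), 39166 (Gm11408) and 7064 (Gm11407). The split of counts described next is therefore not a test of the window measure. All 15 are annotated in the orientation of the mitochondrial gene they copy. The 15 rows had a median count of 218 or more over the 12 libraries and 14 of them at least 4272 counts in every library. Their counts did not follow the share of windows within 6 mismatches. Gm13341 had 89.6% of its windows within it and a median of 218 counts, and Gm11410 had 1.14% and 44117 counts. Of the 54 rows with no such window, 23 were at 0 in every library and the median of their median counts was 0. The highest of these was Cep295, a long gene of which a small part is a copy, with a median of 1574 counts (the plot of identity against counts). With 12 mismatches allowed 3 further rows held a window, Gm43841 (median of 311 counts), Gm50174 (142) and Gm11512 (26), and 51 rows held none. The 11 rows took a median of 2.72% of all counts in a library, and all 15 rows took 3.56%. On these rows, reads of mitochondrial RNA and reads of RNA made from the nuclear copies cannot be told apart.

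**Figure D2:**
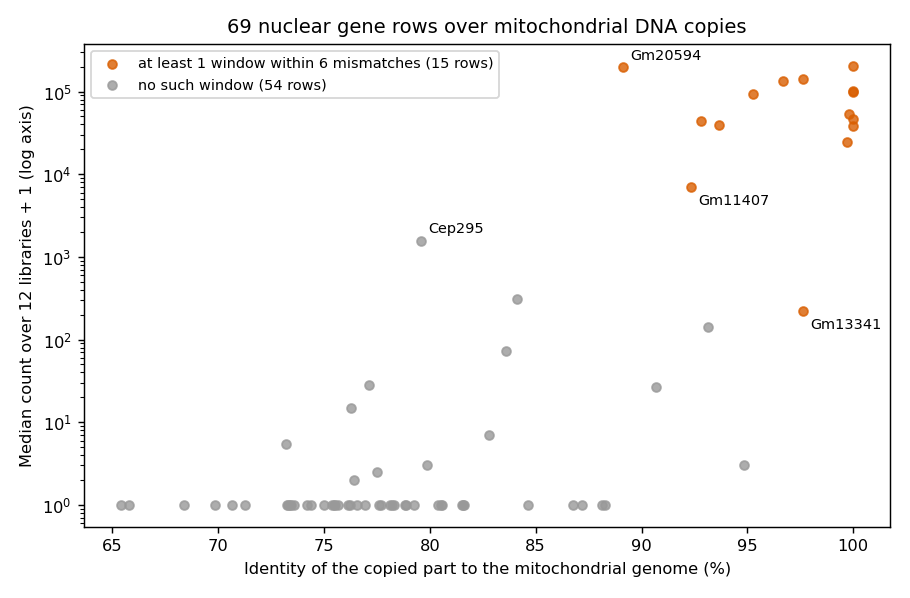
Median count over the 12 libraries plus 1 (vertical axis, log scale) against the identity of the copied part to the mitochondrial genome (horizontal axis, %) for the 69 nuclear gene rows over copies of mitochondrial DNA. The 15 rows with a window within 6 mismatches (orange) reach 204504 counts in Gm10925. The 54 rows without one (grey) stay at or below the 1574 counts of Cep295. Of the orange rows, 4 were added after their values had been seen, so the split between the colours is not a test.

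Levels between rows were compared per length, as RPKM (CPM from library totals, divided by the length of the row in kilobases) and as medians over the 12 libraries. The full length of each row was used, not the part close to the mitochondrial genome. Of the windows over a row, 100% were within 6 mismatches for the chromosome 1 rows. The share was 49.5% for Gm4076, 35.4% for Gm11408, 5.04% for Gm11407 and 1.14% for Gm11410. RPKM therefore does not rank the levels of the mitochondrial transcripts. The copies of complex I genes spanned 208 RPKM in Gm11407 (mt-Nd5, chromosome 4) to 8085 RPKM in Gm13339 (mt-Nd2, chromosome 2). Between them lay Gm28438 (mt-Nd3) at 2098 RPKM, Gm11408 (mt-Nd6, the one mRNA of the opposite strand) at 2380, Gm4076 (mt-Nd5, chromosome 13) at 2949, Gm28439 (mt-Nd4) at 3530 and Gm10222 (mt-Nd4l) at 4760. The complex III copy Gm11410 (mt-Cytb) stood at 1178 RPKM.

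Among complex IV copies, Gm28661 (mt-Co2) stood at 4286 RPKM, Gm29216 (the 3′ part of mt-Co1 on chromosome 1) at 3211, Gm13340 (mt-Co1 on chromosome 2) at 2791 and Gm28437 (mt-Co3) at 1400. The second mt-Co2 copy, Gm13341, stood at 9.30 RPKM. Of the 150-base windows of mt-Co2 opposite Gm28661, 96.5% matched that row better than any other nuclear place, whereas 0% of those opposite Gm13341 did. Its counts per library ran from 170 to 309, against 85529 to 113367 for Gm28661. The ATP synthase copy Gm10925 (mt-Atp6) stood at 8743 RPKM and was the row with the fourth largest total among all gene rows of the series. The large rRNA copy Gm20594 had the highest level of the 15 rows, 12862 RPKM, with 173037 to 220325 counts per library. Of its windows 5.98% were within 6 mismatches. None of the 69 rows lay mainly over a copy of mt-Rnr1 or of a tRNA gene. The gene mt-Atp8, whose copy on chromosome 1 is exact, has no counted row of its own there.

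The libraries had been depleted of ribosomal fragments, which bears on the rRNA members. The rRNA repeat families of nuclear origin kept 4.20% to 11.1% of the counts of a library, and Gm20594 from 0.508% to 0.649%. Neither the MERVL ASOs nor the scrambled ASO matched the mitochondrial genome closely: the fewest mismatches over 20 bases on either strand were 6 for each of the 3 MERVL ASOs and 7 for the scrambled ASO.

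The comparison of MERVL-KD with control asked at each stage whether counts on the copies moved with the knockdown. Rows past an adjusted p of 0.05 in edgeR's quasi-likelihood test are said to have passed, and those that also changed at least 2-fold are called. Log2 fold changes are MERVL-KD minus control with their standard error (SE), and levels are CPM on the scale of the same fit. In such bulk libraries fewer mitochondria and less RNA in each of them cannot be told apart. No mitochondrial mRNA or rRNA row could be tested at any stage, and the values that follow are those of the copies.

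In 2-cell embryos none of the 11 copies passed in edgeR, where 14.1% of all genes tested did (6.57% were called). None had an unadjusted p under 0.05 either, and DESeq2 gave 0. The median log2 fold change of the 11 copies was -0.03, beside 0.01 for all genes, and their range was -0.15 to 0.14. Gm10925 (mt-Atp6) had 5482 and 6568 CPM in MERVL-KD and 6637 and 6439 CPM in control embryos. The ranges overlapped, at a log2 fold change of -0.12 (SE 0.08, adjusted p = 0.371 in edgeR). Among the 4 rows added later, the rRNA copy Gm20594 passed, with 5108 and 5333 CPM in MERVL-KD against 6163 and 6007 CPM in control. Its log2 fold change was -0.22 (SE 0.06, adjusted p = 0.0294 in edgeR), and both MERVL-KD libraries lay below both controls. It did not pass with the replicate number as a block or without any one of control replicate 1, control replicate 2 and MERVL-KD replicate 1, and it turned to 0.066 with library size alone. That scaling moved the median of all genes from 0.01 to 0.29 and made 8 of the 11 copies pass as higher, where 21.0% of all genes did. Changes here are therefore relative to the bulk of genes.

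In 4-cell embryos 0 of the 11 copies passed in edgeR, where 10.8% of all genes did and 4.52% were called. With an unadjusted p under 0.05 there were 3, and DESeq2 gave 0. Their median log2 fold change was -0.27 beside 0.02 for all genes. The complex I copy Gm13339 (mt-Nd2) had 3066 and 4119 CPM in MERVL-KD and 4358 and 4808 CPM in control, a log2 fold change of -0.35 (SE 0.13, adjusted p = 0.113 in edgeR). Gm28438 (mt-Nd3) had 626 and 777 CPM against 875 and 866 CPM, a log2 fold change of -0.31 (SE 0.10, adjusted p = 0.0806 in edgeR). In each of these rows both MERVL-KD libraries were below both controls, and MERVL-KD replicate 1 was the lower. That library gave 2.40% of its counts to the 11 copies and replicate 2 gave 2.97%. The count at this stage, like that of all genes, changed when some libraries were dropped, in fits that leave 1 library in a group. With the replicate block 2 passed, both lower (1820 of 19738 genes passed). With the filter at 1 count in any library 6 passed (2862 of 40566 genes).

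In 8-cell embryos 4 of the 11 copies passed, all lower in MERVL-KD, where 5.06% of all genes passed and 3.56% passed as lower. None was called, as 1.68% of all genes were. The median log2 fold change of the 11 was -0.23, beside 0.01 for all genes. Gm10925 (mt-Atp6) had 4835 and 4882 CPM in MERVL-KD and 7079 and 5815 CPM in control, and fell by 0.41 on the log2 scale (SE 0.09, adjusted p = 0.0206 in edgeR). Gm28438 (mt-Nd3) had 719 and 669 CPM against 930 and 904 CPM, and fell by 0.40 (SE 0.07, adjusted p = 0.0103). Both MERVL-KD libraries were below both controls in each of these rows.

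The other 2 were Gm13339 (mt-Nd2), with 3861 and 4180 CPM in MERVL-KD against 5351 and 4720 CPM in control, which fell by 0.32 (SE 0.08, adjusted p = 0.0337 in edgeR), and Gm28437 (mt-Co3), with 905 and 920 CPM against 1103 and 1104 CPM, which fell by 0.27 (SE 0.07, adjusted p = 0.0448 in edgeR). The rRNA copy Gm20594 passed too, at -0.27 (SE 0.06, adjusted p = 0.0326 in edgeR), from 6214 and 6229 CPM in control to 5284 and 5013 CPM in MERVL-KD, but not without either one of the control replicates. The mt-Co1 copies Gm29216 and Gm13340 did not pass, at log2 fold changes of -0.11 (SE 0.07) and -0.20 (SE 0.07), nor did the mt-Cytb copy Gm11410 at -0.20 (SE 0.08). The count of 4, like that of all genes, changed when some libraries were dropped, in fits that leave 1 library in a group. It went to 1 with all 12 libraries in one fit (1138 of 24040 genes passed). With library size alone, which moved the median of all genes to 0.13, it went to 0 (927 of 18414 genes). A difference of the knockdown effect between stages did not pass for any of the 11 copies in edgeR, neither for the 4-cell against the 2-cell stage (4.16% of all genes passed), nor for the 8-cell against the 4-cell (0.624%) or against the 2-cell stage (4.03%). The unadjusted p was under 0.05 for 1, 0 and 2 copies, and DESeq2 was not run on these contrasts.

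**Figure D3:**
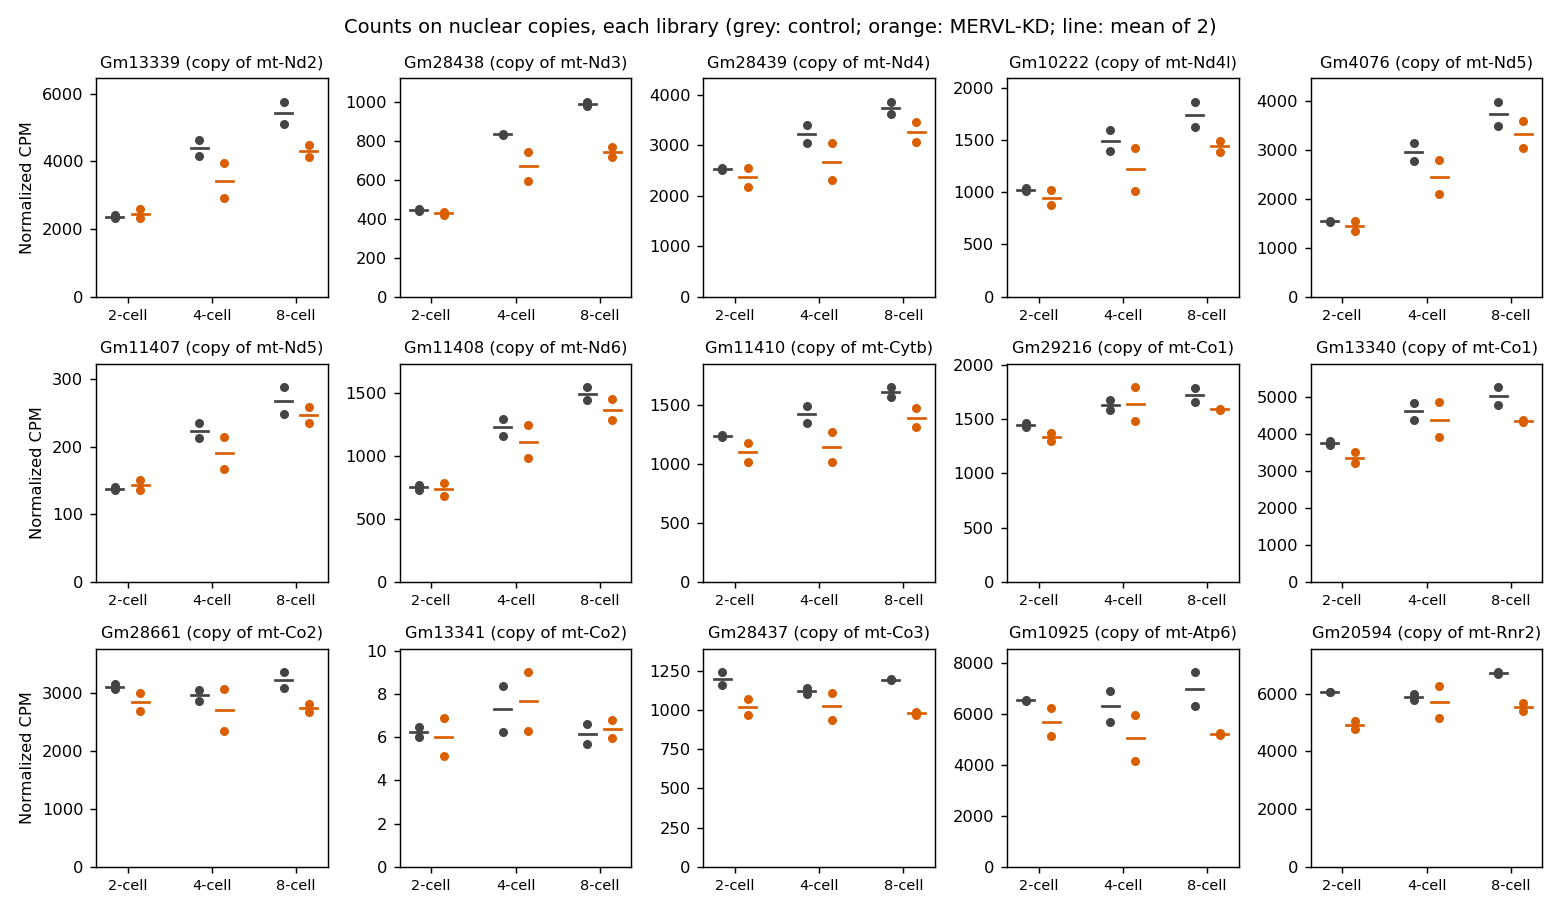
CPM (vertical axes, from 0, factors set over all 12 libraries) of the 15 rows over copies, in each library at the 2-cell, 4-cell and 8-cell stages (grey control, orange MERVL-KD, lines the means of 2 libraries). Copies of complex I genes stand higher at the later stages, whereas Gm28661, Gm28437 and Gm10925 stay near their 2-cell level, and at the 4-cell stage the 2 MERVL-KD libraries lie apart in most panels.

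In control embryos 7 of the 11 copies rose from the 2-cell to the 4-cell stage and 0 fell, where 30% of all genes rose and 31.9% fell. Of the 15 rows, the 7 complex I copies all rose, by 0.37 to 0.96 on the log2 scale. The largest of these rises was that of Gm4076 (mt-Nd5), from 1452 and 1393 CPM at the 2-cell to 2630 and 2915 CPM at the 4-cell stage, a log2 fold change of 0.96 (SE 0.08, adjusted p = 1.1e-07 in edgeR). Gm28438 (mt-Nd3) went from 422 and 400 CPM to 797 and 772 CPM (0.93, SE 0.07), and Gm13339 (mt-Nd2) from 2166 and 2200 CPM to 3969 and 4285 CPM (0.92, SE 0.07). The stages did not overlap in any of these rows, and none reached 2-fold at this step.

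Of the 5 complex IV copies 2 rose. The mt-Co1 copies Gm13340 and Gm29216 rose by 0.32 (SE 0.07) and 0.20 (SE 0.07), and the mt-Cytb copy Gm11410 by 0.22 (SE 0.07). Gm29216 did not pass without either one of the control 4-cell replicates, nor Gm11410 without control 4-cell replicate 2. Differences between the complexes were not tested. Gm28661 (mt-Co2) had 2941 and 2794 CPM at the 2-cell and 2715 and 2830 CPM at the 4-cell stage, a log2 fold change of -0.05 (SE 0.07, adjusted p = 0.559 in edgeR). Gm28437 (mt-Co3) stood at -0.08 (SE 0.07), Gm10925 (mt-Atp6) at -0.03 (SE 0.09) and Gm20594 (mt-Rnr2) at -0.02 (SE 0.06), and none of these passed. Rows on the same nuclear copy thus moved unequally: on chromosome 1, Gm28438 rose by 0.93 while Gm28437, the row beside it, had -0.08.

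In control embryos 3 of the 11 copies rose further from the 4-cell to the 8-cell libraries, both of 2.5 dpc, where 4.88% of all genes rose. These were again complex I copies, Gm4076 by 0.34 (SE 0.08), Gm13339 by 0.32 (SE 0.07) and Gm28438 by 0.26 (SE 0.07), and of the rows added later Gm11408 (mt-Nd6) rose by 0.29 (SE 0.08). The count of 3, like that of all genes, changed when some libraries were dropped. It went to 5 with DESeq2 (2475 of 21175 genes passed). It went to 0 with library size alone (2433 of 21175) or with all 12 libraries in one fit (1411 of 24040). Over the whole interval from the 2-cell to the 8-cell stage 7 of the 11 rose (31.2% of all genes rose), and 3 of them, Gm4076 (1.31, SE 0.08), Gm13339 (1.24, SE 0.07) and Gm28438 (1.19, SE 0.07), were called (24.9% of all genes were called higher), beside Gm11408 (1.03, SE 0.08) among the added rows.

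In MERVL-KD embryos 6 of the 11 copies rose from the 2-cell to the 4-cell stage, where 28.9% of all genes rose. Gm4076 rose by 0.77 (SE 0.13), Gm28438 by 0.66 (SE 0.11) and Gm13339 by 0.50 (SE 0.13), and the mt-Co1 copies Gm13340 and Gm29216 by 0.41 (SE 0.11) and 0.32 (SE 0.10). The count of 6, like that of all genes, changed when some libraries were dropped. From the 4-cell to the 8-cell stage 0 of the 11 passed in edgeR (2.65% of all genes passed), 3 had an unadjusted p under 0.05 and DESeq2 gave 1. From the 2-cell to the 8-cell stage 7 rose (29.5% of all genes rose) and 1, Gm4076 (1.21, SE 0.14), was called (23.8% were called higher). The count of 7 was also lower without MERVL-KD 2-cell replicate 1. With library size alone some of the copies passed as lower in this comparison.

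**Figure D4:**
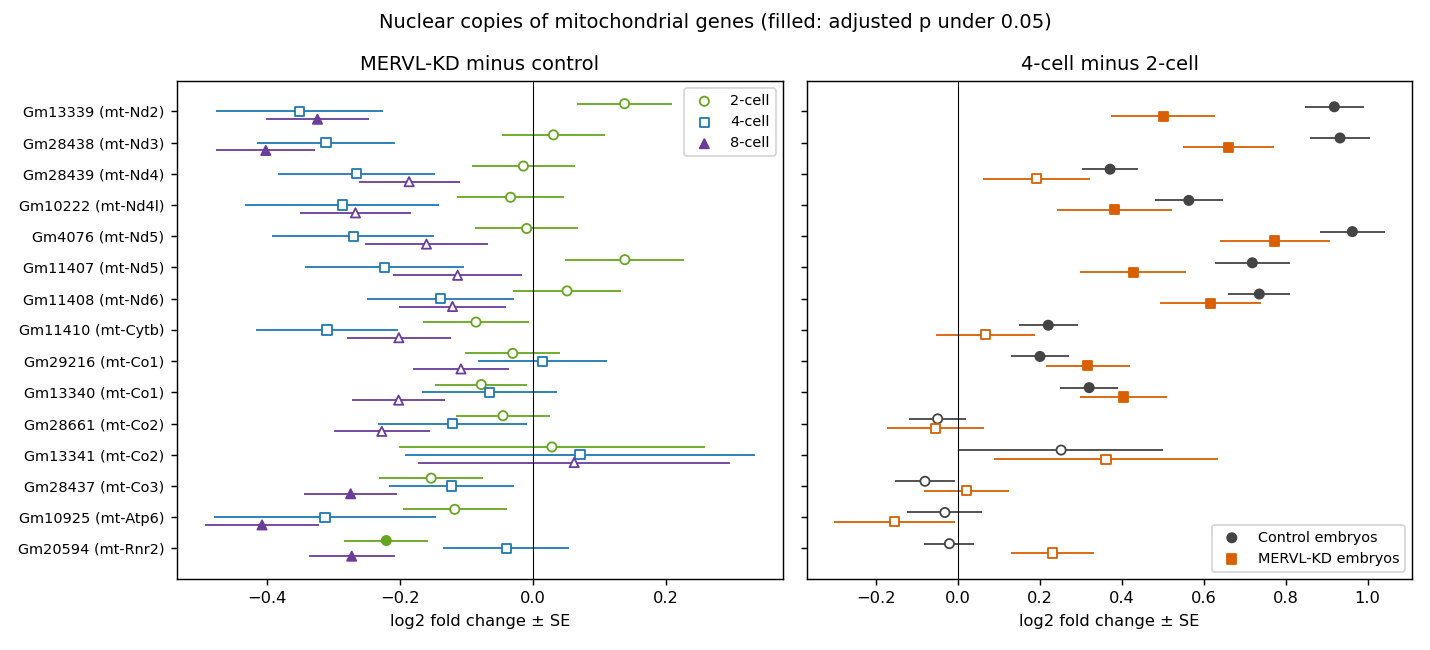
Log2 fold changes with standard errors (horizontal axes) of the 15 rows over copies, with the mitochondrial gene each copies in brackets: MERVL-KD minus control at 3 stages (left) and the 4-cell minus the 2-cell stage in control and MERVL-KD embryos (right), filled symbols having an adjusted p under 0.05. On the right the complex I copies of control embryos lie between 0.37 and 0.96 and Gm28661, Gm28437, Gm10925 and Gm20594 near 0.

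The nuclear genes that make and handle mitochondrial RNA were measured in the usual way. Of 61 such genes (transcription, upkeep of mitochondrial DNA, cleavage of precursors, RNA stability, modification and regulators), 59 were tested at each stage. In MERVL-KD against control 2-cell embryos 3 rose and 4 fell, in 4-cell embryos 1 rose and 10 fell, and in 8-cell embryos 0 rose and 2 fell, where 6.7%, 4.92% and 1.5% of all genes rose and 7.39%, 5.84% and 3.56% fell. The median log2 fold changes of the list were -0.08, -0.11 and -0.14, beside 0.01, 0.02 and 0.01 for all genes. The 4-cell count of 11 was 7 with the replicate block (1820 of 19738 genes passed). The counts at the 4-cell and 8-cell stages changed when single libraries were dropped.

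Polrmt, the RNA polymerase of mitochondria (chromosome 10, 79736123 to 79746581, minus strand, GRCm38), was called lower in MERVL-KD at all 3 stages. In 2-cell embryos it had 11.3 and 13.6 CPM in MERVL-KD against 40.6 and 52.7 CPM in control, a log2 fold change of -1.90 (SE 0.16, adjusted p = 1.07e-06 in edgeR). In 4-cell embryos it had 66.7 and 63.4 CPM against 174 and 179 CPM (-1.44, SE 0.10, adjusted p = 4.55e-06 in edgeR), and in 8-cell embryos 78.5 and 79.9 CPM against 184 and 160 CPM (-1.12, SE 0.10, adjusted p = 4.3e-05 in edgeR). No library of one condition reached the range of the other at any stage. In control embryos it rose from the 2-cell to the 4-cell stage by 1.89 (SE 0.12). The ASOs had at least 7 mismatches (MERVL ASOs) and 6 mismatches (scrambled ASO) to any 20 bases of the gene on either strand.

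Of the other transcription factors of mitochondria, Tfam, which packages and activates mitochondrial DNA, and Tfb2m, the initiation partner of POLRMT, did not pass at any stage, with log2 fold changes in 2-cell, 4-cell and 8-cell embryos of -0.02, -0.19 and -0.01 for Tfam and -0.01, -0.19 and -0.32 for Tfb2m. Tefm, the elongation factor, fell in 4-cell embryos by 0.93 (SE 0.17, adjusted p = 0.00519 in edgeR). Its levels were 25.8 ± 2.62 CPM in control and 13.5 ± 1.31 CPM in MERVL-KD (SD, n = 2). Mterf1a, a termination factor, was called higher in 2-cell embryos at 4.51 and 2.69 CPM against 1.16 and 1.74 CPM (1.27, SE 0.36, adjusted p = 0.0273 in edgeR), a call lost without control replicate 1, without MERVL-KD replicate 1 and with all 12 libraries in one fit. Mrm2, a methyltransferase of the large mitochondrial rRNA, was called higher in 2-cell embryos on 94 and 45 counts against 8 and 13 counts (2.40, SE 0.50, adjusted p = 0.00418 in edgeR), and without MERVL-KD replicate 1 it no longer passed. In 4-cell embryos it passed in the other direction, at 3.85 and 3.11 CPM in MERVL-KD against 7.93 and 6.10 CPM (a log2 fold change of -0.9995, SE 0.29, adjusted p = 0.0464 in edgeR), but not without control replicate 1, without MERVL-KD replicate 2, with the replicate block, with library size alone, with all 12 libraries in one fit or in the non-robust fit. Its span overlaps Nudt1 on the opposite strand. Mrm1, another methyltransferase of that rRNA, rose in 2-cell embryos by 0.67 (SE 0.21, adjusted p = 0.0489 in edgeR), and did not pass without any one of the 4 libraries, with the replicate block or in DESeq2.

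Among the regulators, Nrf1, a nuclear activator of genes for mitochondria, fell in 2-cell embryos by 0.67 (SE 0.12, adjusted p = 0.00117 in edgeR). Its levels were 68.1 ± 2.99 CPM in control and 42.9 ± 5.92 CPM in MERVL-KD (SD, n = 2). Gabpb1, a subunit of the activator GABP, fell there by 0.54 (SE 0.11, adjusted p = 0.00335), and Gabpa, its DNA-binding subunit, rose in 4-cell embryos by 0.33 (SE 0.09, adjusted p = 0.0389). Dhx30, an RNA helicase of mitochondrial RNA granules, fell in 4-cell embryos by 0.63 (SE 0.10, adjusted p = 0.00243) and in 8-cell embryos by 0.55 (SE 0.11, adjusted p = 0.0171). Gabpa did not pass without control replicate 1, control replicate 2 or MERVL-KD replicate 2, nor Dhx30 at the 8-cell stage without control replicate 1. Polrmt at all 3 stages, Nrf1 and Gabpb1 at the 2-cell stage, and Tefm and Dhx30 at the 4-cell stage passed with each library left out in turn.

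**Figure D5:**
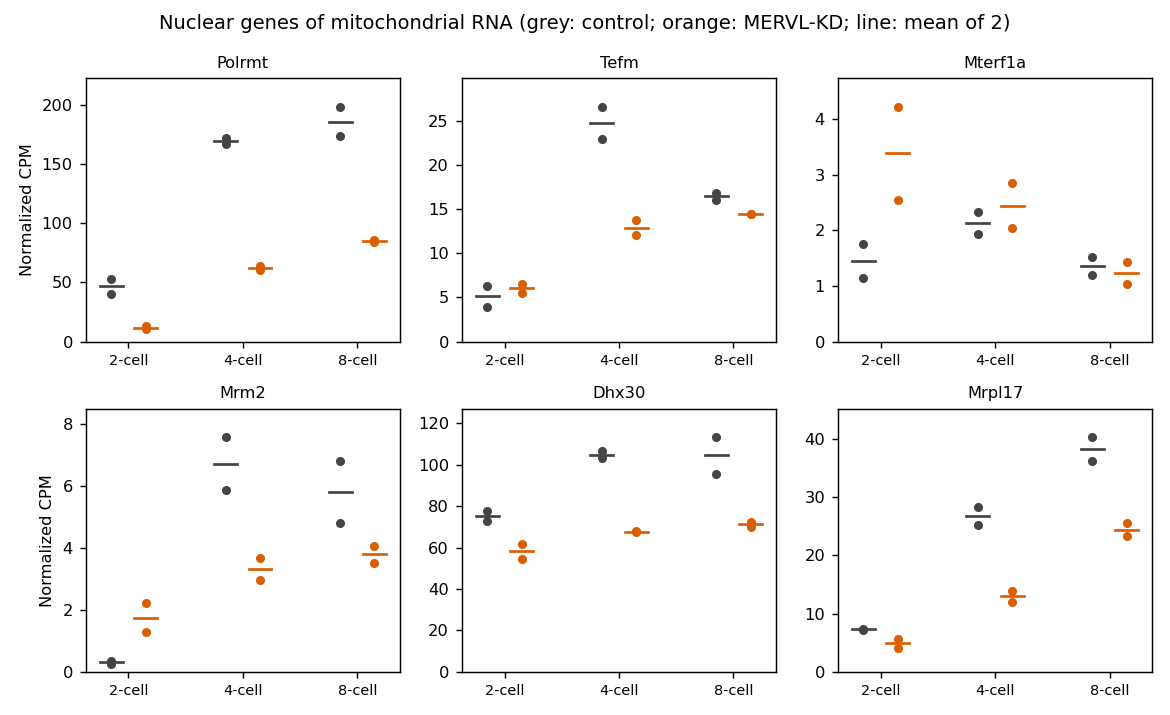
CPM (vertical axes, from 0, factors set over all 12 libraries) of 6 nuclear genes of mitochondrial RNA and the mitochondrial ribosome in each library at the 2-cell, 4-cell and 8-cell stages (grey control, orange MERVL-KD, lines the means of 2 libraries). Polrmt lies lower in MERVL-KD at all 3 stages, and Tefm and Mrpl17 at the 4-cell stage.

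The mitochondrial ribosome, which translates the mitochondrial mRNAs, is built from nuclear-encoded proteins and the 2 mitochondrial rRNAs. Of its 78 protein genes 77 were tested. In MERVL-KD against control embryos 3 rose and 1 fell at the 2-cell, 1 rose and 4 fell at the 4-cell, and 0 rose and 4 fell at the 8-cell stage, where 6.7%, 4.92% and 1.5% of all genes rose and 7.39%, 5.84% and 3.56% fell. The shares of the list were thus at or below those of all genes at the 2-cell and 4-cell stages, and at the 8-cell stage the share that fell was near that of all genes. Its median log2 fold changes were -0.04, -0.06 and -0.12, beside 0.01, 0.02 and 0.01 for all genes. Mrpl17 was called lower at the 4-cell stage (-1.04, SE 0.17, adjusted p = 0.00237 in edgeR), at 14.5 and 12.6 CPM against 29.5 and 26.2 CPM, and fell at the 8-cell stage by 0.64 (SE 0.14, adjusted p = 0.0226 in edgeR). Mrps2 fell at the 4-cell stage by 0.66 (SE 0.15) and at the 8-cell stage by 0.61 (SE 0.14), Mrps27 at the 4-cell stage by 0.82 (SE 0.21) and Mrpl22 at the 8-cell stage by 0.43 (SE 0.09). Mrpl39, Mrpl42 and Mrps11 rose at the 2-cell stage by 0.95 (SE 0.23), 0.79 (SE 0.22) and 0.71 (SE 0.22), Mrps30 fell there by 0.37 (SE 0.11), and Mrpl28 rose at the 4-cell stage by 0.67 (SE 0.15). Of these named genes Mrpl17 at the 4-cell stage passed with each library left out in turn, and each of the others failed to pass without at least 1 library. The counts at the 2-cell, 4-cell and 8-cell stages all changed when single libraries were dropped. The 8-cell count of 4 was 0 with library size alone (927 of 18414 genes passed).

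From the 2-cell to the 4-cell stage of control embryos 64 of the 77 mitochondrial ribosomal protein genes rose and 3 fell, with a median log2 fold change of 1.32 beside -0.03 for all genes, and of the 59 genes of mitochondrial RNA 30 rose and 12 fell, with a median of 0.51. Of all genes 30% rose and 31.9% fell. Beside these, the copies of the mitochondrial genes themselves had a median of 0.32 over the 11 rows. Tfam rose by 2.58 (SE 0.15), whereas Tfb2m did not pass, at -0.09 (SE 0.09).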

How the data were processed

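The authors aligned 150-base paired reads of stranded, ribosome-depleted SMART-Seq libraries to GRCm38 with STAR 2.5.3a, kept single best alignments, and counted them on GENCODE genes and RepeatMasker families with featureCounts. The deposited values are raw counts with no normalization. The strand setting and the pair counting are not given in the sources used here. Neither is the content of the index.

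Counts were tested with edgeR 4.0.16 (R 4.3.3; filterByExpr, TMM, robust quasi-likelihood fit, prior count 2), each stage apart, stages within a condition in one fit of 6 libraries, and differences of the knockdown effect in one fit of 12. P-values were adjusted by Benjamini-Hochberg over all rows tested, genes and repeat families. Copies were located with BLAST+ 2.17.0 (at least 100 bases shared with a gene row). RPKM was computed from counts and the length in the file. DESeq2 1.42.0 and the other alternatives are named in the closing section, and the fits were first run on simulated data holding 200 changed genes. Replicate numbers did not pair the samples (correlations of deviations -0.01 at 2-cell, -0.00074 at 4-cell and 0.01 at 8-cell). Within every group the replicate libraries were further apart than counting noise allows. Floors cover counting error only. Standard errors come from the quasi-likelihood fit, which includes the spread between replicate libraries.

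Members and lists were chosen with earlier results of these data known. The mRNAs, rRNAs and any tRNA at 0 were named, with, from the nuclear lists, the called genes and the 3 smallest adjusted p in each direction. ATAC-seq libraries were not analysed here.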

Additional observations from a re-analysis of the deposited data

Results flagged for a closer look

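The knockdown difference of 6 nuclear genes differed between stages by the interaction term of the 12-library edgeR fit, each value being the log2 fold change of the later stage minus that of the 2-cell stage. For the 4-cell stage 4 of 60 genes of mitochondrial RNA and 0 of 77 ribosomal protein genes passed, where 4.16% of all genes did, and for the 8-cell stage 4 of 60 and 1 of 77, where 4.03% did, so that the counts are near those of all genes. Mrm2 had -3.31 for the 4-cell (SE 0.52, adjusted p = 0.000782) and -2.92 for the 8-cell stage (SE 0.52, adjusted p = 0.00225), on 8 and 13 counts in the control 2-cell libraries. Tefm had -1.18 for the 4-cell stage (SE 0.30, adjusted p = 0.0298). Nrf1 had 0.62 for the 4-cell (SE 0.17, adjusted p = 0.0493) and 0.62 for the 8-cell stage (SE 0.17, adjusted p = 0.0484), and Gabpb1 had 0.65 (SE 0.17, adjusted p = 0.0328) and 0.63 (SE 0.17, adjusted p = 0.0408). Polrmt had 0.86 for the 8-cell stage (SE 0.18, adjusted p = 0.00773), its fall being smaller there than at the 2-cell stage, and 0.54 for the 4-cell stage, which did not pass (SE 0.18, adjusted p = 0.101). Mrpl39 had -0.82 for the 8-cell stage (SE 0.22, adjusted p = 0.0383).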

How the results depend on the processing

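Polrmt passed as lower under all 16 alternatives at each stage, with log2 fold changes from -2.10 to -1.61 in 2-cell, from -1.48 to -1.38 in 4-cell and from -1.21 to -0.99 in 8-cell embryos. The counts of copies changed with scaling and with single libraries, and the cause was not tested. With library size alone 8 of 11 copies passed in 2-cell embryos (all higher, as 21.0% of all genes were), 0 in 8-cell embryos (5.03% of all genes passed) and 0 in control 8-cell against 4-cell embryos (11.5%), and 4 and 2 copies passed in the differences of the 4-cell and 8-cell effect from that of the 2-cell stage, all lower, as 5.30% and 3.87% of all genes were. In MERVL-KD 8-cell against 2-cell embryos the total of 7 copies was the same but the directions were not. With library size alone 4 passed as higher and 3 as lower (24.95% and 36.4% of all genes), whereas in the main fit 7 rose and 0 fell. Genes of mitochondrial RNA then numbered 11 in 2-cell and 6 in 4-cell embryos, and ribosomal protein genes 12 in 2-cell and 0 in 8-cell embryos, where 24.4%, 9.57% and 5.03% of all genes passed at the 3 stages. Gm20594 turned to 0.066 at the 2-cell stage and Gm29216 to -0.014 in MERVL-KD 8-cell against 2-cell embryos. With all 12 libraries in one fit 1 copy passed in 4-cell embryos, 1 in 8-cell embryos, 0 in control 8-cell against 4-cell and 1 in MERVL-KD 8-cell against 4-cell embryos, and 7 ribosomal protein genes at the 2-cell stage. Of the 24040 genes tested there, 2487, 1138, 1411, 1125 and 2082 passed in these comparisons. With rows of at least 1 count in any library 6 copies passed at the 4-cell stage and 3 in MERVL-KD 8-cell against 4-cell embryos, and 7 and 9 ribosomal protein genes at the 2-cell and 4-cell stages. Of all genes 2862 of 40566 passed at the 4-cell stage, 1611 of 41906 in that comparison of stages and 3447 of 37805 at the 2-cell stage. DESeq2 gave 9 ribosomal protein genes at the 4-cell stage, 5 copies in control and 1 in MERVL-KD 8-cell against 4-cell embryos. Of all genes 2493 of 19738, 2475 of 21175 and 1575 of 22482 passed in these comparisons.

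The replicate block gave 2 copies and 7 genes of mitochondrial RNA at the 4-cell stage (1820 of 19738 genes passed). It gave 1 copy in MERVL-KD 8-cell against 4-cell embryos (717 of 22482) and moved no other of these counts by more than 1.5 times. When single libraries were dropped, the count of copies changed in the comparisons of MERVL-KD with control at all 3 stages. It also changed in control 8-cell against 4-cell embryos and in each comparison of stages in MERVL-KD embryos. Counts of genes of mitochondrial RNA changed at the 4-cell and 8-cell stages and those of ribosomal protein genes at all 3 stages. The number of all genes that passed changed at all 3 stages too. Such a fit leaves 1 library in a group, which is assumed to vary like the others. The share of the copies in the counts (2.72%) was 3.46% of gene counts and 3.56% with the 4 added rows. That of the mitochondrial genes was 0 throughout. Size factors of DESeq2, gene rows only, the filter of 10 counts, the non-robust fit and halved counts moved no count by more than 1.5 times. Nor did scaling without the copy rows, which was chosen, like both other settings of the copies' share, after seeing the data. Scaling without mitochondrial rows, also among the alternatives for Polrmt, could not differ from the main fit, since those rows are at 0 in every library. Composition within mitochondrial counts could not be computed.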
